A study of Nannochloropsis oceanica strain IMET1 with 6 samples.

Results

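Genes near the chromosome ends of the marine alga Nannochloropsis oceanica strain IMET1 were compared between the insertional mutant HLM23 and the wild type (WT). A gene was taken as an end gene when it lay wholly within the first 20 kb of a chromosome, or when it started no more than 20 kb before the last gene end of that chromosome. By this rule 263 of the 9552 genes in the deposited table are end genes, and the other 9289 are called interior genes. No expression value entered the rule.

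HLM23 (3 libraries) carries an insertion that disrupts NO06G03670, a gene for a putative transcription factor of the APETALA2 type, and its genotype is labelled NO06G03670-. The WT control (3 libraries) is the strain without that insertion. HLM23 is 1 mutant strain, so an effect of NO06G03670 cannot be told apart from other differences between these 2 strains. Both strains grew for 3 days in 25 ml of buffered artificial sea water with a commercial nutrient mix, from an optical density of 0.1 at 750 nm, at 25 °C in air enriched with 0.2% CO2, with 16 h of light daily at 600 μmol m-2 s-1, and were harvested 1 h before dark. Whether each replicate had its own culture is not stated in the labels. The p-values therefore rest on the spread among these 6 libraries, which may be technical.

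Chromosomes end in short DNA repeats called telomeres, and the region next to them is called the subtelomere. In budding yeast, genes placed beside a telomere can be silenced through proteins that spread inward from the repeats, which is known as the telomere position effect. In many eukaryotes subtelomeres hold repeated sequence and young gene families, and gene models there are harder to assemble and annotate. APETALA2-type proteins bind DNA and regulate transcription in plants and algae.

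The libraries held between 15331673 and 18711316 gene reads, as implied by the deposited values. The disrupted gene, which lies far from both ends of chromosome 6, had 1073, 982 and 777 normalised reads in HLM23 and 2164, 1664 and 1682 in the WT (fitted log2 change -0.96, SE 0.18, with adjusted p = 0.0026 in limma). The replicate 2 libraries of the 2 strains lay close to each other, with a Spearman correlation of 0.976 across genes, whereas other pairs of unlike strains ran from 0.905 to 0.952. That value exceeded those of HLM23 replicate 3 with HLM23 replicates 1 (0.969) and 2 (0.974). The remaining pairs within a strain ran from 0.982 to 0.988. Over all genes, 2730 of 9452 tested differed between the strains.

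The end genes were spread over nearly every chromosome end. Of the 60 ends of 30 chromosomes, 59 held at least 1 end gene, with a median of 4 and a range from 1 to 11. The end with none was the right end of chromosome 6, where the last gene runs from 1355216 to 1393462 and so begins outside the window. That gene had 14.1, 20.5 and 24.0 normalised reads in HLM23 and 8.45, 8.62 and 1.01 in the WT. The right end is the end of the last gene and not the end of the DNA, so distances at right ends are lower bounds. At left ends the first gene began between base 89 and base 6922, with a median of 562. The sources used here do not give the genome build of these coordinates.

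In structure the end genes resembled interior genes in length and strand. Their median gene length was 1967 bases against 1906 bases for interior genes. The listed length was shorter than the genomic span, as it is when introns are left out, in 78.7% of end genes and 71.2% of interior genes. Transcription ran toward the nearer end in 135 of the 263 end genes (51.3%) and in 50.4% of interior genes. An overlap with another listed gene was found for 40 end genes (15.2%) and for 13.6% of interior genes. Reads in such overlaps may be shared, because strand handling is not stated. The outermost gene of each end was longer, with a median of 2917 bases over 59 genes.

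End genes were expressed at a lower level than interior genes in all 6 libraries. The level used here is the normalised read count per kb of listed gene length. Its median over end genes was 202, 210.4 and 176 in HLM23 replicates 1 to 3, against 189.6, 212 and 186 in WT replicates 1 to 3. The median over interior genes was 278, 285 and 264 in HLM23, against 289, 283 and 285 in the WT. The end median was thus 71.1% ± 3.72 of the interior median in HLM23, against 68.6% ± 5.49 in the WT (SD, n = 3 each), and the strains overlapped. Over all 6 libraries the median level was 207 for end genes and 290 for interior genes. The authors' FPKM implied a gene length more than 1% off the listed one for 59 end genes (22.4%) and for 13.2% of interior genes. The median FPKM was 12.9 for end genes and 17.9 for interior genes, and so was also lower for end genes. These levels are a description, and no test was run across genes, which are not independent replicates.

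The lower median came with a larger share of near-silent genes. The lower quartile of the level was 17.5 in end genes and 105 in interior genes, a wider gap than at the upper quartile, where the values were 505 and 683. A mean under 10 normalised reads was found for 44 of 263 end genes (16.7%) and for 486 of 9289 interior genes (5.23%). A mean under 1 was found for 10 end genes (3.80%) and 90 interior genes (0.969%). At the other extreme, 24.7% of end genes and 33.0% of interior genes had a mean of at least 1000 normalised reads. End genes therefore ranged from near silence to very high abundance.

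Within the window the low levels were most frequent in the outermost genes. The median level was 98.9 for the 59 outermost genes, 157 for the 56 second genes, 258 for the 92 genes in the third or the fourth place and 245 for the 56 genes further in. A mean under 10 was found for 28.8%, 19.6%, 10.9% and 10.7% of these classes in the same order. Interior genes with their nearer edge 20 to 40 kb from an end had a median of 255, and 10.4% had a mean under 10. Between 40 and 80 kb the share was 10.6%, between 80 and 160 kb it was 6.07%, and from 160 kb inward it was 4.44%. The median levels of these 3 classes were 219, 251 and 299.5 in the same order. The share of near-silent genes thus stayed above that of the chromosome interior well past the 20 kb window, and no step stood at its edge: the 69 end genes whose far edge lay 15 to 20 kb from the end had a median level of 207, and the 74 interior genes at 20 to 25 kb had a median of 194.

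**Figure D1:**
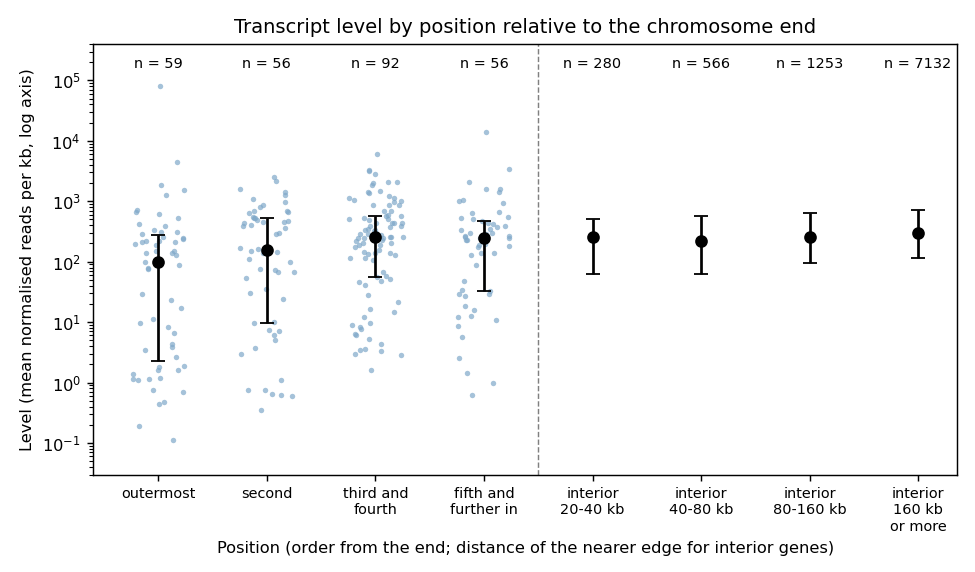
Mean normalised reads per kb over the 6 libraries (log axis) for end genes by their order from the end, and for interior genes by distance. Small points are single end genes, black points are medians and bars run between the quartiles. The medians of the outermost and second genes, 98.9 and 157, lie below those of the other classes, and their lower quartiles reach furthest down.

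Summed together, near-silent end genes had more reads in HLM23 than in the WT, most of all in 1 library. End genes listed at 0 numbered 15, 12 and 9 in HLM23, which is 4.56% ± 1.14 of 263, against 18, 15 and 23 in the WT, which is 7.10% ± 1.54 (SD, n = 3). The strains met at 15 genes and did not otherwise overlap. Interior genes showed the same order on a smaller scale, with 1.32% ± 0.0764 at 0 in HLM23, against 1.64% ± 0.191 in the WT. Over the 44 end genes with a mean under 10, the summed normalised reads were 154, 181 and 296 in HLM23 and 112, 104 and 102 in the WT. Over the 486 such interior genes the sums were 1967, 2084 and 2817 in HLM23 and 1608, 1557 and 1521 in the WT. Few of these genes were called singly. Of the 44 end genes 34 were tested and 3 were called, each higher in HLM23. Of the 486 interior genes 396 were tested and 37 were called, 25 of them higher, where 28.9% of all genes were called. The sums thus do not show that each gene rose. In both classes the sums of all HLM23 libraries lay above those of all WT libraries, and HLM23 replicate 3, the deepest library, was highest.

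HLM23 replicate 3 was the highest library in 20 of these 44 end genes, and in 11 of the 17 outermost genes with a mean under 10. This was not counted for the interior genes, so it is not shown to be particular to end genes. An example among the outermost genes is that on the left of chromosome 7 (6579 to 7987), listed at 0, 0 and 10.0 in HLM23 and at 0 in all WT libraries, and picked after its values were seen. In all, 9 of 263 end genes were at 0 in every WT library but not in every HLM23 library, and 1 was at 0 in every HLM23 library but not in every WT library. Of 9289 interior genes the counts were 51 and 24. A listed 0 does not show absence, since a few reads can be missed at this depth. The part of depth and of HLM23 replicate 3 in this pattern was not tested.

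**Figure D2:**
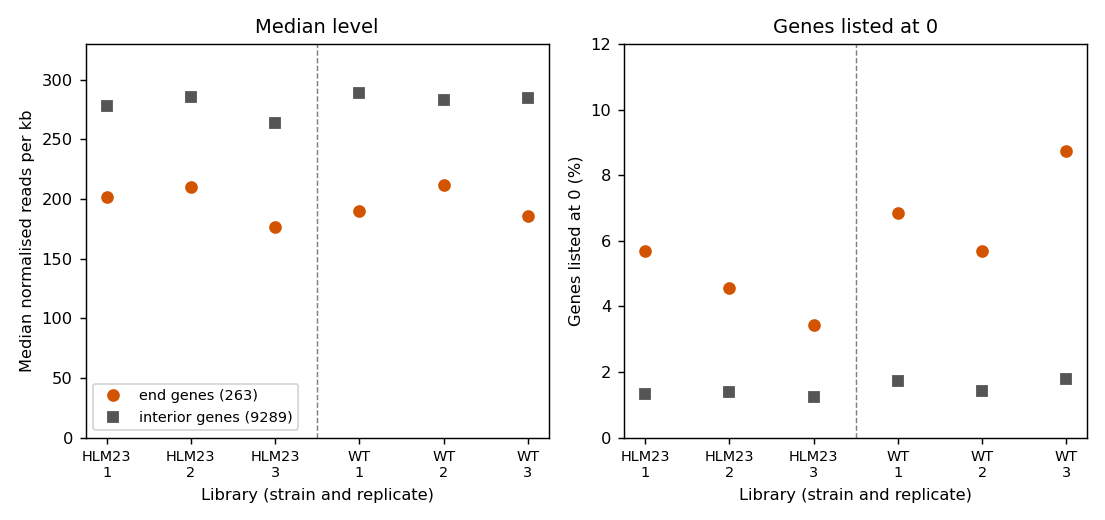
Median level (left, normalised reads per kb) and share of genes listed at 0 (right, percent) in each library for the 263 end genes and 9289 interior genes. The end medians lie below the interior medians in all 6 libraries, and the share at 0 is higher for end genes in each.

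The most abundant end genes reached levels far above this background. The first is the outermost gene on the left of chromosome 20 (1168 to 2159, plus strand), with 70561, 63554 and 93213 normalised reads in HLM23 and 47636, 50021 and 55891 in the WT. All HLM23 libraries lay above all WT libraries, yet the difference did not pass the threshold (fitted log2 change 0.55, SE 0.20, with adjusted p = 0.060 in limma), and its level, 81909 normalised reads per kb, was the highest of the end genes. The gene at 983719 to 987542 on the right of chromosome 14, with 14094 per kb, also did not pass (log2 fold change 0.24, limma adjusted p = 0.32). Both overlap another listed gene. The gene at 16312 to 17546 on the left of chromosome 3 had 1928 ± 123 normalised reads in HLM23, against 1907 ± 251 in the WT (SD, n = 3; limma adjusted p = 0.93).

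The other 2 of the 5 most abundant end genes rose. The gene at 1154383 to 1155759 on the right of chromosome 11 had 7448, 6296 and 6511 normalised reads in HLM23 and 3109, 3819 and 3270 in the WT (fitted log2 change 0.99, SE 0.15, with adjusted p = 0.00094 in limma). The outermost gene on the left of chromosome 22 (514 to 4962) had 11477, 9786 and 11474 in HLM23 and 5719, 6392 and 6476 in the WT (fitted log2 change 0.81, SE 0.15, with adjusted p = 0.0022 in limma). Neither overlapped between the strains. End genes together took 2.04% ± 0.0684 of normalised reads in HLM23, against 1.85% ± 0.0445 in the WT (SD, n = 3). Without the most abundant gene the shares were 1.60% ± 0.117 in HLM23, against 1.53% ± 0.0526 in the WT, and the strains overlapped.

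End genes changed between HLM23 and the WT about as often as other genes did. Of 263 end genes, 253 had a mean of at least 1 and were tested, and 70 of these (27.7%) passed an adjusted p of 0.05 in limma. Over all 9452 tested genes the share called was 28.9%, and over interior genes it was also 28.9%. Higher expression in HLM23 was called for 40 end genes (15.8%, against 14.5% of all genes) and lower expression for 30 (11.9%, against 14.3% of all genes and 14.4% of interior genes). Strain values did not overlap in 117 of the 253 end genes (46.2%) and in 46.9% of all genes. The difference between end and interior genes in these shares was not tested.

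Changes of at least 2-fold leaned toward higher expression in HLM23, as they did in the genome as a whole. They numbered 27 higher (10.7%, against 7.66% of all genes and 7.58% of interior genes) and 13 lower (5.14%, against 5.24% of all genes). At least 4-fold, 8 of the 253 tested end genes were higher and 0 were lower, against 148 and 45 of the 9199 tested interior genes. Of those 8, 6 had a WT mean under 10 normalised reads, so their fitted sizes depend on the pseudocount. The median log2 fold change over tested end genes was 0.051, against -0.0029 over interior genes, and the median absolute change was 0.50 against 0.40. The residual spread between replicates was also wider, with a median SD of 0.30 on the log2 scale in end genes and 0.26 in interior genes.

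The division between higher and lower calls depended on the scaling of the libraries. Higher calls made up 57.1% of the 70 calls, beside 50.3% of the calls over all genes. Scaling each library to the same total gave 32 higher and 36 lower end genes, or 47.1% higher. Past 2-fold the same scaling gave 21 higher and 17 lower calls, in place of 27 and 13. It called 26.9% of end genes and 27.8% of all genes, but their split by direction over all genes was not counted. That scaling moved the median log2 fold change of all tested genes from -0.0022 to -0.11. It moved that of the end genes from 0.051 to -0.060, so the shift was not particular to end genes. Leaving out 1 library lowered the number of end genes called to 46 without HLM23 replicate 1, 43 without WT replicate 1 and 40 without WT replicate 3, beside 18.4%, 16.2% and 16.3% of all genes. Without both replicate 2 libraries, a fit added after the data were seen, 57 end genes were called, beside 23.8% of all genes.

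**Figure D3:**
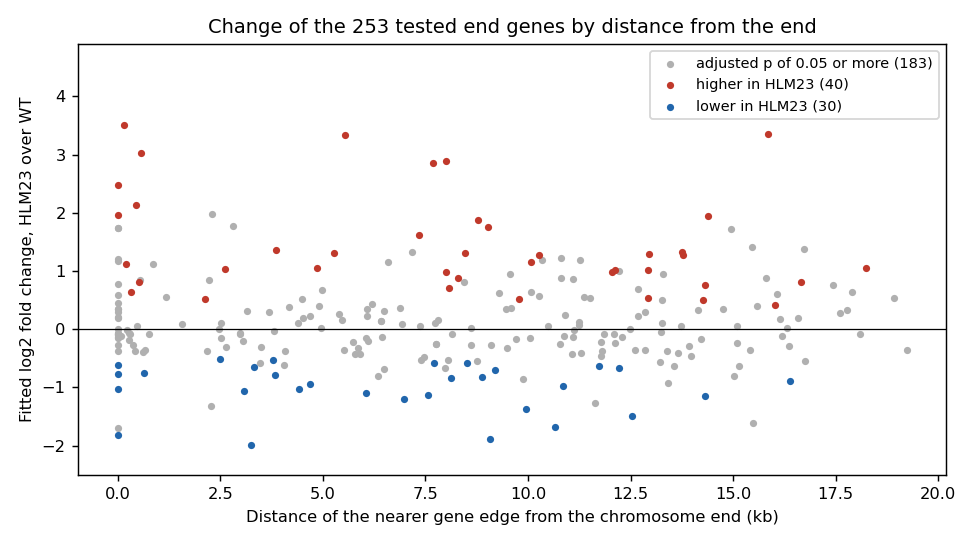
Fitted log2 fold change (HLM23 over WT) of the 253 tested end genes against the distance of the nearer gene edge from the chromosome end in kb. Genes called higher (40), called lower (30) and not called (183) are found along the whole window, and the largest rises reach further from 0 than the largest falls.

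Position within the window gave no steady trend in the share of genes called. It was 15 of 54 tested outermost genes (27.8%), 14 of 53 second genes (26.4%), 28 of 92 genes in the third or the fourth place (30.4%) and 13 of 54 genes further in (24.1%). Beside these shares, 28.9% of all genes were called. At left ends 26 genes were called higher (19.3%) and 12 lower (8.89%) of 135 tested, and at right ends 14 were higher (11.9%) and 18 lower (15.3%) of 118, where all genes gave 14.5% higher and 14.3% lower. Among genes transcribed toward the end 18 of 127 (14.2%) were at least 2-fold higher, and among those transcribed away from it 9 of 126 (7.14%), beside 7.66% of all genes. These splits were made after the values were seen, and the differences between them were not tested.

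The deposited table does not pair IDs with gene descriptions, so functions are not assigned. IDs are given for 2 rises and 2 falls, and the other end genes are given by position. Among called genes whose mean reached 10 and whose strains did not overlap, the largest fitted rises were those of a pair of outermost genes that were near silent in the WT. Both reached that mean only through their HLM23 libraries. NO06G00010, on the minus strand at the left end of chromosome 6 (155 to 2780), had 2.17, 7.80 and 51.0 normalised reads in HLM23 and was listed at 0 in all WT libraries (limma adjusted p = 0.018). Its values in HLM23 were uneven, and its call was lost without HLM23 replicate 3 (limma adjusted p = 0.070) or WT replicate 3 (0.060) and with a pseudocount of 10 (0.069). Its fitted log2 change was 3.50, against 4.42 without HLM23 replicate 1 and 2.40 without HLM23 replicate 3, and depends on the pseudocount. It shares a chromosome with the disrupted gene but lies at its far left end.

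NO23G00020, on the plus strand at the left end of chromosome 23 (5547 to 10748), had 26.1, 15.6 and 38.0 normalised reads in HLM23 and 0.939, 1.92 and 2.02 in the WT. Its mean was 26.5 ± 11.2 in HLM23, against 1.62 ± 0.596 in the WT (SD, n = 3; fitted log2 change 3.33, SE 0.57, with adjusted p = 0.0017 in limma), and it stayed past the threshold in each alternative fit. The only other gene of that end, at 15842 to 16696 on the opposite strand, had 11.9, 12.7 and 11.0 in HLM23 and 0, 0 and 1.01 in the WT (limma adjusted p = 0.0040). It was singled out after its values were seen, because its mean lies under the minimum of 10 set for naming. The second gene also reached the mean of 1 needed for testing only through its HLM23 libraries. Both genes of this chromosome end were near 0 in WT libraries, and each of the HLM23 libraries held reads of both. The pair was picked through its HLM23 values, so this is a description only.

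Other rises involved genes with ample reads in the WT. The gene at 813727 to 817325 on the right of chromosome 20 had 4904, 3360 and 3223 normalised reads in HLM23 and 342, 1028 and 395 in the WT. This was a rise to 6.51 times the WT mean (fitted log2 change 2.86, SE 0.34, with adjusted p = 0.00041 in limma), the largest among end genes with a WT mean of at least 100. WT replicate 2 was the highest of the WT libraries there. The same held for the outermost gene on the right of chromosome 10 (1239853 to 1243699), with 1728, 1342 and 1761 in HLM23 and 199.9, 903 and 383 in the WT (fitted log2 change 1.96, SE 0.40, with adjusted p = 0.0041 in limma). It also held for the gene at 8780 to 10843 on the left of chromosome 26, with 847, 693 and 668 in HLM23 and 106, 455 and 163 in the WT (fitted log2 change 1.87, SE 0.40, with adjusted p = 0.0054 in limma). Without WT replicate 2 the fitted log2 change of this gene was 2.47.

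Further rises to more than 3 times the WT mean were seen at the left ends of chromosomes 21, 13 and 15. The gene at 14399 to 16405 on chromosome 21 had 942, 703 and 962 normalised reads in HLM23 and 152, 319 and 231 in the WT (fitted log2 change 1.94, SE 0.26, with adjusted p = 0.00061 in limma). The gene at 9014 to 10690 on chromosome 13 rose to 3.235 times the WT mean, and that at 7336 to 11782 on chromosome 15 to 3.12 times. At the right of chromosome 29, the gene at 563108 to 567188 had 1703 ± 277 in HLM23, against 673 ± 75.2 in the WT (SD, n = 3), a rise to 2.53 times with a limma adjusted p of 0.00055. The gene at 13767 to 18532 on the left of chromosome 26 had 7861 ± 1104 in HLM23, against 3288 ± 815 in the WT (SD, n = 3), though it overlaps another listed gene. None of these genes overlapped between the strains, which the rule for naming them required.

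In all, 21 rises and 13 falls of at least 2-fold met the rule for naming. Naming stopped at 12 rises beyond the 2 given by ID. The other 4 rises named by size lay between 2.39 and 5.81 times the WT mean. They were the genes at 7990 to 11434 on the left of chromosome 9 (5.81 times, from few reads), 12945 to 18882 on the left of chromosome 20 (2.51 times), 689971 to 693570 on the right of chromosome 23 (2.42 times) and 8470 to 19490 on the left of chromosome 6 (2.39 times). The first of these had 31.5, 24.4 and 47.0 normalised reads in HLM23 and 0, 8.62 and 9.08 in the WT. Like the 2 rises given by ID, it reached the mean of 10 needed for naming only through its HLM23 libraries. It lost its call without HLM23 replicate 3 (limma adjusted p = 0.068) and narrowly with a pseudocount of 0.1 (0.050). Its fitted log2 change was 2.89 over all libraries and 1.79 without WT replicate 1.

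The largest fitted falls were those of genes with moderate reads in the WT. NO25G00030, on the minus strand at the left end of chromosome 25 (3256 to 5434), had 21.7, 49.7 and 27.0 normalised reads in HLM23 and 152, 110.2 and 116 in the WT. It fell to 26.0% of its WT level (fitted log2 change -1.98, SE 0.35, with adjusted p = 0.0020 in limma). NO21G02670, on the minus strand at the right end of chromosome 21 (821193 to 824164), had 53.2, 46.8 and 52.0 in HLM23 and 224, 144 and 215 in the WT, a fall to 26.1% (fitted log2 change -1.89, SE 0.27, with adjusted p = 0.00082 in limma). Its HLM23 libraries lay close together, with an SD of 3.41 normalised reads (n = 3). Both genes stayed past the threshold in each alternative fit.

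The further falls of at least 2-fold on the fitted scale left between 29.8% and 51.1% of the WT mean. The outermost gene on the right of chromosome 28 (581596 to 584198) had 18.5, 52.6 and 29.0 normalised reads in HLM23 and 132, 86.2 and 117 in the WT, a fall to 29.8% (limma adjusted p = 0.0053). The short gene at 10663 to 11058 on the left of chromosome 25 fell to 32.0%, and lost its call without WT replicate 3 (limma adjusted p = 0.073). The most abundant of the genes that fell at least 2-fold, at 7569 to 18386 on the left of chromosome 22, had 1899, 2689 and 1897 in HLM23 and 5279, 3703 and 5120 in the WT (fitted log2 change -1.12, SE 0.19, with adjusted p = 0.0016 in limma). The genes at 3068 to 10912 on the left of chromosome 19, 814261 to 818917 on the right of chromosome 21 and 693571 to 696861 on the right of chromosome 23 fell to 48.2%, 46.2% and 44.2%. The outermost gene on the right of chromosome 3 (1659810 to 1663968) fell to 51.1%, with 561, 974 and 1324 in HLM23 and 1880, 1418 and 2292 in the WT, and lost its call without HLM23 replicate 1 (limma adjusted p = 0.054), without WT replicate 1 (0.053) or without WT replicate 3 (0.093).

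**Figure D4:**
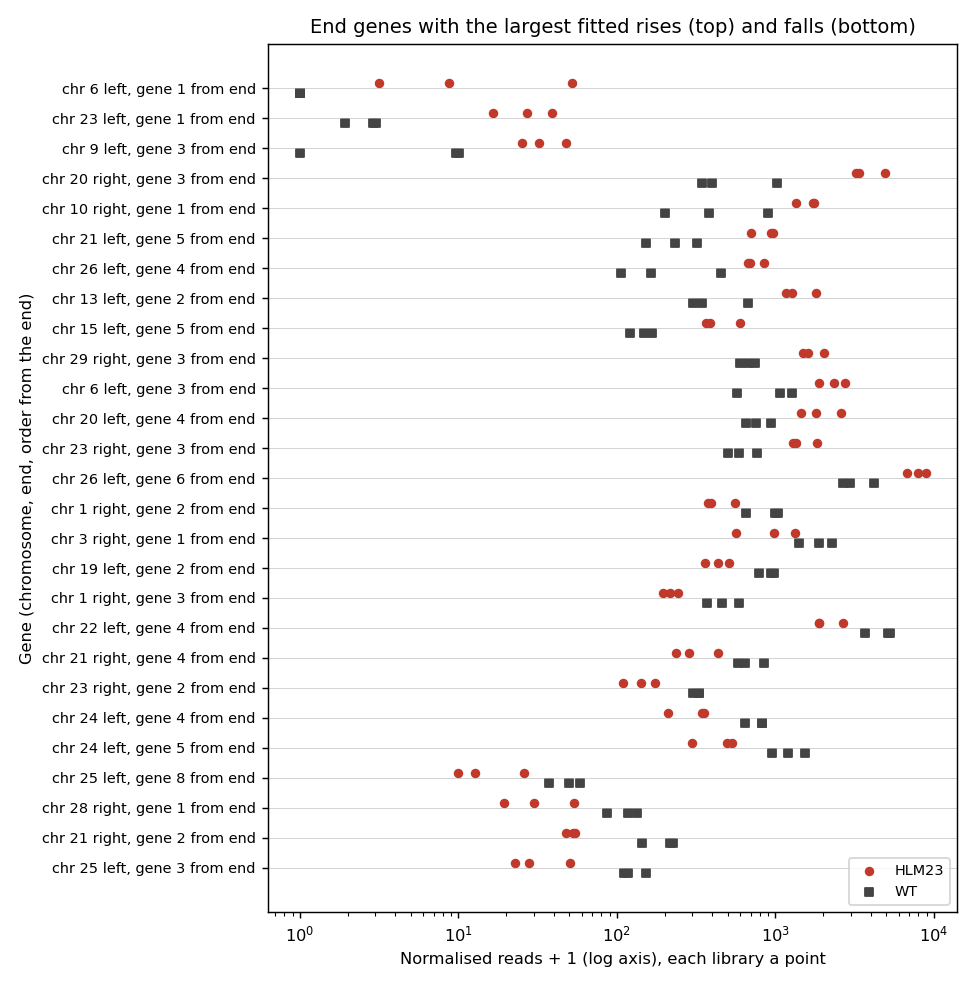
Normalised reads plus 1 (log axis) in each library for the 27 end genes with the largest fitted changes under the rule for naming, ordered from rises at the top to falls at the bottom. Circles are HLM23 libraries and squares are WT libraries. The strains do not overlap in any of these genes, as the rule required, and the 3 rises at the top start from few reads in the WT.

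Of the 54 tested outermost genes, 15 were called (27.8%, beside 28.9% of all genes), with 9 higher and 6 lower in HLM23 (16.7% and 11.1%, beside 14.5% and 14.3% of all genes). Among the low ones, the outermost gene on the left of chromosome 30 (578 to 4958) had 2.17, 15.6 and 19.0 normalised reads in HLM23 and 0.939, 0 and 0 in the WT (limma adjusted p = 0.020). It reached the mean of 1 needed for testing only through its HLM23 libraries. The outermost gene on the right of chromosome 16 (974489 to 979699) had 11.9, 5.85 and 29.0 in HLM23 and 0.939, 0.958 and 3.03 in the WT (limma adjusted p = 0.021). The one on the left of chromosome 8 (435 to 3967) had 53.2, 33.1 and 21.0 in HLM23 and 3.75, 24.0 and 3.03 in the WT, so that the strains overlapped (limma adjusted p = 0.033). These 3 calls rested on single libraries, and the fitted log2 changes also moved, from 3.03 to 3.87 without HLM23 replicate 1 on chromosome 30 and from 2.14 to 2.98 without WT replicate 2 on chromosome 8. On chromosome 30 the limma adjusted p was 0.063 without HLM23 replicate 2, 0.073 without HLM23 replicate 3 and 0.068 without WT replicate 3. On chromosome 16 it was 0.052 without HLM23 replicate 1, 0.073 without HLM23 replicate 3 and 0.068 without WT replicate 1. On chromosome 8 it was 0.11 and 0.063 without HLM23 replicates 1 and 2, and 0.12 and 0.14 without WT replicates 1 and 3.

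The remaining outermost genes called had more reads. On the left of chromosome 10 the gene at 206 to 5595 had 75.0 ± 17.3 in HLM23, against 33.7 ± 7.49 in the WT (SD, n = 3; limma adjusted p = 0.026). The outermost gene on the left of chromosome 12 was higher as well, and those on the left of chromosomes 13 and 15 were lower, at 58.0% and 58.5% of the WT mean. In these last 2 the HLM23 libraries had 1430, 2147 and 1752 normalised reads on chromosome 13 and 164, 147 and 130 on chromosome 15. The WT libraries had 3175, 2473 and 3543 on chromosome 13 and 276, 196 and 281 on chromosome 15. The call on chromosome 10 was lost without HLM23 replicate 2 (limma adjusted p = 0.090) or 3 (0.055) and without WT replicate 1 (0.092) or 2 (0.063). That on chromosome 13 was lost without WT replicate 3 (0.056), and that on chromosome 15 without each library but WT replicate 2 (0.053 to 0.12). Outermost genes therefore changed in both directions, mostly with calls that a single library could end.

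Calls were scattered over the ends. Of the 59 ends, 24 held no called gene, 13 held calls toward higher expression alone, 11 toward lower expression alone and 11 in both directions. At least 3 calls in 1 direction were found at 4 ends. How often runs of neighbouring interior genes reach this was not counted, so these ends are a description only. Of 193 neighbouring pairs of tested end genes, both were called in 22, or 11.4%, of which 13 moved in the same direction (59.1%) and 9 in opposite directions. Of 9088 neighbouring pairs of tested interior genes, both were called in 9.36%, and 61.1% of these moved in the same direction. The sign of the fitted change was shared in 118 of the 193 end pairs (61.1%) and in 53.6% of the interior pairs, a difference that was not tested.

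On the right of chromosome 1, 3 of 4 end genes fell. From the end inward, the gene at 1685026 to 1689613 had 570.1, 814 and 486 normalised reads in HLM23 and 1029, 858 and 931 in the WT (log2 fold change -0.62, limma adjusted p = 0.039). The gene at 1683581 to 1685202 had 372, 558 and 391 in HLM23 and 1042, 656 and 991 in the WT (-1.02, limma adjusted p = 0.0064). The gene at 1683058 to 1683561 had 215, 196 and 244 in HLM23 and 589, 371 and 458 in the WT (-1.09, limma adjusted p = 0.0040). Of the 3, the first 2 converge and overlap, so they may share reads, and the innermost gene of this end, at 1675626 to 1680062, had 7.35 ± 6.76 in HLM23, against 3.81 ± 3.83 in the WT (SD, n = 3; limma adjusted p = 0.45). The call of the outermost gene was lost without HLM23 replicate 1 (0.11) or 3 (0.096) and without WT replicate 1 (0.13) or 3 (0.11), while the calls of its 2 neighbours held in each alternative fit.

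On the right of chromosome 8, 3 of 6 end genes fell by less than 2-fold. The outermost gene (1291871 to 1296530) had 291, 357 and 165 normalised reads in HLM23 and 449, 397 and 480.0 in the WT (limma adjusted p = 0.048). Its neighbour at 1290957 to 1291840 had 172, 281 and 291 in HLM23 and 425, 393 and 604 in the WT (limma adjusted p = 0.016). The gene at 1283268 to 1284810 stood at 63.2% of the WT mean (limma adjusted p = 0.049), and its call was lost without any 1 of the 6 libraries (0.059 to 0.19), with the replicate block (0.057) and with a pseudocount of 10 or no filter (0.052 each). That of the outermost gene was lost without each library but HLM23 replicate 2 (0.056 to 0.15), and narrowly with other pseudocounts, no filter or equal library totals (0.050 to 0.052). That of its neighbour was lost without HLM23 replicate 1 (0.067) or WT replicate 3 (0.088). The genes between them, at 1285168 to 1288483 and 1289060 to 1290745, also had lower means in HLM23 without passing, with adjusted p-values of 0.051 and 0.093, and the innermost gene, at 1279896 to 1283267, had a higher one (limma adjusted p = 0.16).

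On the left of chromosome 12, 3 of 7 end genes rose. The outermost gene (320 to 2460) had 632, 527 and 580 normalised reads in HLM23 and 344, 436 and 344 in the WT (limma adjusted p = 0.025). The gene at 8004 to 9289 had 1323, 1228 and 1690 in HLM23 and 546, 847 and 753 in the WT (log2 fold change 0.99, limma adjusted p = 0.0039). The one at 12931 to 14634 rose to 1.45 times the WT mean (limma adjusted p = 0.025). Between the first and second of these, the gene at 2461 to 8003 had 3436 ± 39.9 in HLM23, against 3434 ± 195 in the WT (SD, n = 3; limma adjusted p = 0.99). The other 3 genes, at 9290 to 12078, 10908 to 12794 and 14766 to 16516, did not pass (adjusted p from 0.24 to 0.85). The call of the outermost gene was lost with equal library totals (limma adjusted p = 0.073), without HLM23 replicate 1 (0.093) and without WT replicate 1 (0.094) or 3 (0.086). That of the gene at 12931 to 14634 was lost with equal library totals (0.099), without HLM23 replicate 1 (0.072) or 2 (0.075) and without WT replicate 1 (0.072) or 3 (0.094).

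On the left of chromosome 21, 3 of 6 end genes rose, and they lie next to each other. The gene at 8301 to 9648 had 565, 440 and 613 normalised reads in HLM23 and 318, 347 and 223 in the WT (log2 fold change 0.87, limma adjusted p = 0.013). The gene at 9790 to 14383 rose to 1.42 times the WT mean (limma adjusted p = 0.043), and next to it lies the gene at 14399 to 16405 given above. The call at 8301 to 9648 was lost without WT replicate 3 (limma adjusted p = 0.063). That at 9790 to 14383 was lost with equal library totals (0.15), without HLM23 replicate 1 (0.15) or 2 (0.082) and without WT replicate 1 (0.060) or 3 (0.18). The 2 outer genes, at 225 to 2276 and 3046 to 8228, had limma adjusted p-values of 0.98 and 0.43, and the gene at 16731 to 18452 had 13.7 ± 3.46 in HLM23, against 5.88 ± 4.29 in the WT (SD, n = 3; limma adjusted p = 0.15).

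At other ends, neighbours moved together or apart. On the left of chromosome 24 a divergent pair with 4 bases between the genes fell together: the gene at 9946 to 12519 had 209, 343 and 355 normalised reads in HLM23 and 827, 641 and 826 in the WT, and the gene at 12524 to 17624 had 295, 533 and 494 in HLM23 and 1533, 956 and 1203 in the WT (limma adjusted p = 0.0016 and 0.0014). On the right of chromosome 23 a convergent pair with 0 bases between the genes moved apart: the gene at 689971 to 693570 had 1837, 1290 and 1343 in HLM23 and 586, 762 and 499 in the WT, whereas the gene at 693571 to 696861 had 141, 173 and 109 in HLM23 and 328, 329 and 301 in the WT (limma adjusted p = 0.0012 and 0.0032). On the right of chromosome 28 the outermost gene fell, as given above, while its convergent neighbour 6 bases away, at 574276 to 581589, rose (log2 fold change 1.04, limma adjusted p = 0.0015). These pairs were picked after their values were seen.

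**Figure D5:**
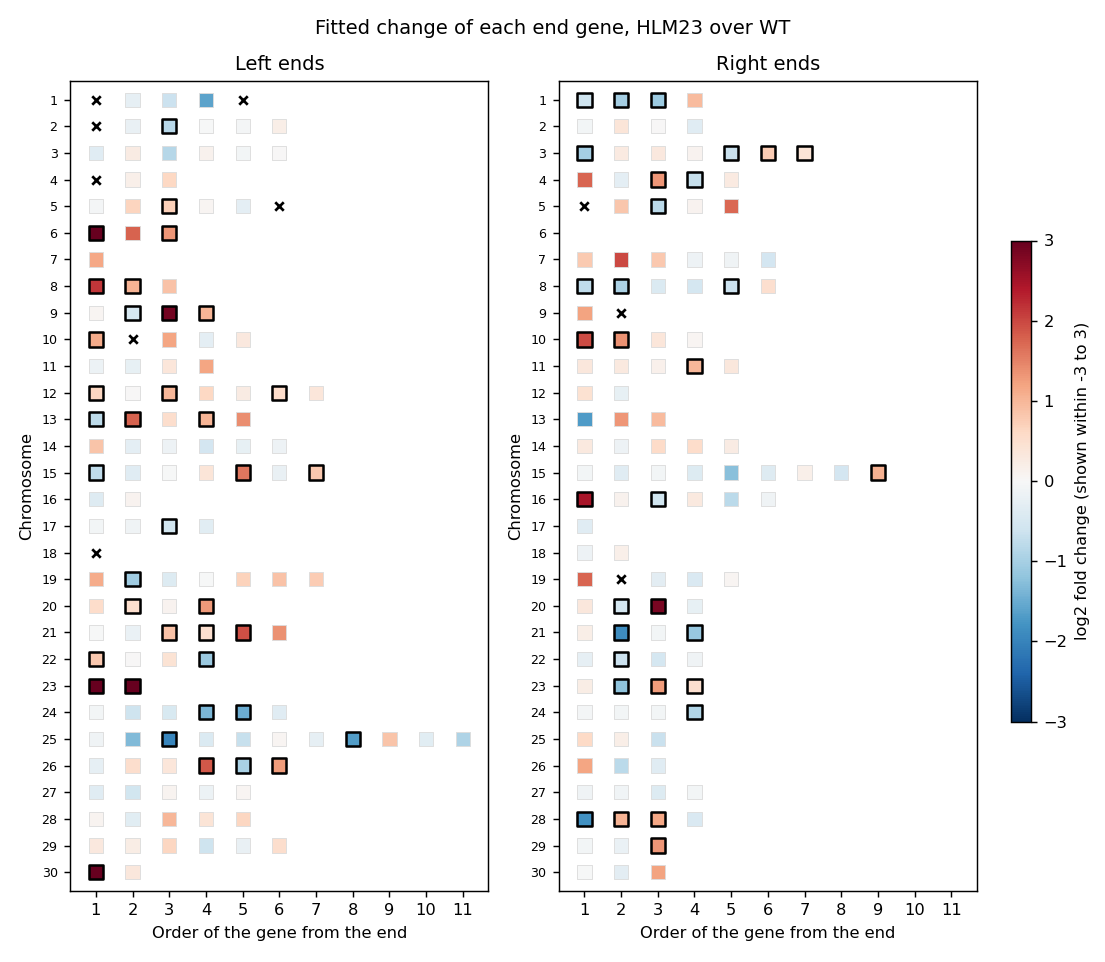
Fitted log2 fold change (colour, red for higher and blue for lower in HLM23 than in the WT) of each end gene, by chromosome (rows) and order from the end (columns), at left and right ends. Black frames mark the 70 genes called and crosses mark the 10 not tested. At 4 ends, such as the right of chromosome 1 and the left of chromosome 21, at least 3 framed genes share a direction.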

How the data were processed

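Per the labels' protocols, messenger RNA libraries were made from 1 μg of RNA and sequenced as paired ends, and a sequencing company did the mapping and quantification. HISAT2, fastp, featureCounts and DESeq2 are the tools listed in the submitters' processing notes. Their versions, the genome build, the annotation, strand handling and the treatment of reads from repeated sequence are each not given in the material used here. The 6 sample columns deposited by the authors hold a signal scaled between libraries: 100% of the values are whole multiples of 1 step per library within 0.001, the pattern of size-factor scaling, and they are called normalised read counts. The FPKM deposited by the authors served as an alternative level, as did their log2 fold changes with p-values for the comparison.

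The 9452 of 9552 genes whose mean over all libraries reached 1 were tested on log2(value + 1) in limma 3.58.1 (R 4.3.3), with a trended variance prior, and p-values were adjusted by Benjamini-Hochberg over all tested genes, with a threshold of 0.05. A fold change on that scale understates the change of low genes. A count model was not used, since an automatic check did not accept whole reads in 2 of the columns. The fit was tested on simulated data. Depth was 15331673, 16346247 and 18711316 reads in HLM23 and 16406373, 16210183 and 16348009 in the WT.

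Named genes were end genes past the threshold whose mean reached 10 and whose strains did not overlap (2 by ID in each direction, then up to 12 more each way at least 2-fold changed), the 5 most abundant, outermost genes called, ends with at least 3 calls in 1 direction, and called genes at 0 in 1 strain. Members and rules were chosen with earlier results of these data known. The reference table of 160 organelle genes shares no ID with the deposited table. Alternatives were other pseudocounts, filters, scaling, windows (10 and 40 kb), threshold and weights, a replicate block, each library left out and the authors' values.

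Same-numbered libraries were not treated as pairs, since no label states what a replicate number shares. Their deviations from the strain means correlated at -0.069, -0.11 and 0.15.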

Additional observations from a re-analysis of the deposited data

How the results depend on the processing

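Counts of end genes called kept within 1.5 times of 70 under other pseudocounts, filters, weights and scaling and in the authors' deposited table (76 calls, which include all 70). With the replicate block 62 were called, 61 of them among the 70, and 2635 genes in all; of the named genes only that at 1283268 to 1284810 on chromosome 8 lost its call (adjusted p = 0.057). At an adjusted p under 0.01, 1303 of 9452 tested genes and 34 of 253 tested end genes were called. Of the end genes 21 were higher, 13 lower and 17 at least 2-fold higher, and these splits were not counted over all genes. A 10 kb window (114 genes) gave 28 calls, 15 higher, 13 lower, and past 2-fold 9 higher and 5 lower, and a 40 kb window (551 genes) gave 146, 69, 77, 42 and 32, or 26.4% and 27.3% of the genes tested. Leaving out 1 library gave 1527 to 2655 calls over all genes and 40 to 64 end genes (26 to 39 higher, 14 to 26 lower), and past 2-fold 16 to 29 higher and 10 to 17 lower. NO06G03670 kept its call, at log2 fold changes of -1.07 to -0.83.

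The median log2 fold change of end genes was 0.021 with a pseudocount of 10, -0.0091 with a stricter filter, -0.060 with equal library totals, 0.010 and -0.029 with the 10 and 40 kb windows, 0.014 without both replicate 2 libraries and 0.0059 to 0.055 with 1 library left out. The interior median was -0.013 with the stricter filter, -0.11 with equal totals, 0.0062 in the authors' deposited table, 0.00014 with the 40 kb window and -0.0089 to 0.0055 with 1 library left out. The small positive median of the end genes is thus not stable in sign. The median level of end genes was 179 and 230.5 with the 10 and 40 kb windows, 223 for genes with a mean of at least 1 and 12.9 as FPKM, beside 17.9 FPKM for interior genes, and 201 to 209 with 1 library left out; interior genes gave 286 to 290.4. End genes with a mean under 1 made up 7.02% with the 10 kb window, 16.7% with a minimum of 10, and 3.04% to 6.08% with 1 library left out, the highest without HLM23 replicate 3.

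Of 658 values for the 44 named genes that were called, 583 kept direction and call, 75 kept direction only, and 0 reversed; 26 of the genes kept their call in each. A fit without a library has fewer samples to test. Few reads limit the near-silent genes: NO06G00010 had a fitted log2 fold change of 6.60 with a pseudocount of 0.1 and 1.24 with 10.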
